A study of Mus musculus with 6 samples.

Results

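miR-193b and miR-365 are a pair of microRNAs (miRNAs, short RNAs that repress messenger RNAs by pairing with them) from neighbouring genes. They were taken from a mouse miRNA microarray by name, as the features called mmu-miR-193b and mmu-miR-365, and make up 2 of the 690 mouse miRNAs and 4 of the 1928 probes on it, with 2 probes each. The array was hybridised with Cy3-labelled total RNA of cartilage, cut by microdissection out of femoral growth plates of C57BL/6 mice aged 12 days. For each of the 6 arrays 5 growth plates were pooled and 100 ng of their RNA was used. There were 2 arrays each for the proliferative, the prehypertrophic and the hypertrophic zone. No treatment or mutation is named, and it is not stated which animals went into which pool, so p-values measure the spread between these 6 samples only. The submitters gave limited starting material as the reason for having 2 hybridisations.

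Growth plate chondrocytes divide in the proliferative zone, leave the cell cycle in the prehypertrophic zone and enlarge in the hypertrophic zone, where cartilage is replaced by bone. A miRNA recognises its targets mainly through its seed, the bases just after its 5′ end, and miRNAs from neighbouring genes are often cut from one primary transcript. The miR-193b and miR-365 pair has been studied in brown fat differentiation. In chondrocytes, miR-365 has been described as responsive to mechanical load and as a repressor of histone deacetylase 4 (HDAC4), which holds back hypertrophy, and miR-193b has been studied in cartilage formation. The comparison asks how the levels of both differed as chondrocytes mature.

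The mature sequences are shown because they bear on what each probe can report. RefSeq (build GRCm38.p6) held all of them, while the array files give probe names without probe sequences. The array follows miRBase version 14, in which these names without an arm suffix stood for the 3′ arms, now called miR-193b-3p, miR-193a-3p (then miR-193) and miR-365-3p. In the sequences below, written 5′ to 3′, capitals mark the seed (bases 2 to 8).
miR-193b-3p: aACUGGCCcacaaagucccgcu
miR-193a-3p: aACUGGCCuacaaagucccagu
miR-365-3p: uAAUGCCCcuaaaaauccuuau
The seed of miR-193b-3p was shared by 1 other mature mouse miRNA among 1679 names, miR-193a-3p. These were identical at 19 of 22 bases, and counted from the 5′ end of miR-193b-3p the differences were C9U, G20A and C21G. The seed of miR-365-3p was shared by no other name, and miR-365-3p and miR-193b-3p have different seeds. In miR-193b-3p 13 of 22 bases were G or C, and in miR-365-3p 7 of 22.

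The genes lie close together on the plus strand of chromosome 16. Mir193b is at chr16:13449523-13449601 and Mir365-1 at chr16:13453840-13453926 (GRCm38.p6), with 4238 bases between them. A second gene for miR-365, Mir365-2 at chr11:79726400-79726511, lies 14365 bases downstream of Mir193a at chr11:79711969-79712034. Below are the hairpins of the chromosome 16 genes and of the second miR-365 gene, with the mature 3′ arm in capitals.
Mir193b: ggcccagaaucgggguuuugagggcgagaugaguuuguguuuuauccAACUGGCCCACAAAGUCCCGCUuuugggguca
Mir365-1: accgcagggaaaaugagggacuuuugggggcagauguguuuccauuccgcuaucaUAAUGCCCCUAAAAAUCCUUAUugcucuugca
Mir365-2: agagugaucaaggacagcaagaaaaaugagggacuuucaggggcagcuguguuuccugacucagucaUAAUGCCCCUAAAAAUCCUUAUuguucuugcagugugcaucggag
Both miR-365 hairpins hold the same 22 bases, so signal at the miR-365 probes cannot be assigned to one gene or the other. miR-193b-3p comes from Mir193b, and its relative miR-193a-3p was measured by probes of its own.

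On each array 24.2% to 27.9% of the spots for miRNAs carried the mark "well above background", the scanner software's flag for a spot clearly brighter than its surroundings. A probe counts as well above background where over 50% of its used spots were. Each array's 75th percentile was taken over the 342 probes that were well above background on all 6 arrays. Signals were divided by this percentile relative to its geometric mean over the arrays, a factor of 0.754 to 1.32. Anything under 12.7 scaled units (log2 3.66) was raised to that floor. All values below are on that scale unless they are called unscaled. Contrasts between zones were fitted with limma over 226 miRNAs, and every adjusted p comes from that fit with Benjamini-Hochberg adjustment over all of them unless the probe fit is named. Cartilage was recognisable by its defining miRNA, miR-140, at 985 to 2459 scaled units over the 6 arrays.

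miR-193b was higher in the hypertrophic than in the proliferative zone and already lay above the proliferative arrays in the prehypertrophic zone. Its brighter probe, A_54_P3061, gave 34.9 and 24.0 scaled units on the first and second proliferative arrays. It gave 51.8 and 55.6 on the prehypertrophic arrays and 62.5 and 66.3 on the hypertrophic arrays. The arrays of the 3 zones therefore did not overlap. In this direction 11.9% of tested miRNAs did not overlap between the proliferative and prehypertrophic arrays, and 34.1% between the prehypertrophic and hypertrophic arrays. The share that separated all 3 zones was not computed. For miR-193b the step between the proliferative and the prehypertrophic arrays was wider than that between the prehypertrophic and the hypertrophic arrays. All unflagged spots of this probe, 8 to 10 per array, were well above background on every array, and their coefficient of variation within an array was 4.45% to 11.6%.

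On the log2 scale miR-193b stood at 4.85 ± 0.38 (SD, n = 2) in the proliferative, 5.75 ± 0.07 (SD, n = 2) in the prehypertrophic and 6.01 ± 0.06 (SD, n = 2) in the hypertrophic zone. The proliferative arrays were 5.12 and 4.58, farther apart than those of either other zone. Between the outer zones the difference was 1.15 log2 units (SE 0.27, 95% confidence interval 0.56 to 1.75, adjusted p = 0.0177), a 2.23-fold rise. In this contrast 14.6% of the 226 tested miRNAs passed the threshold of 0.05 in either direction and 5.75% passed as higher. miR-193b was the 12th highest of the 226 differences. Its arrays did not overlap between the outer zones, a pattern found as higher for 19.9% of the miRNAs.

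**Figure D1:**
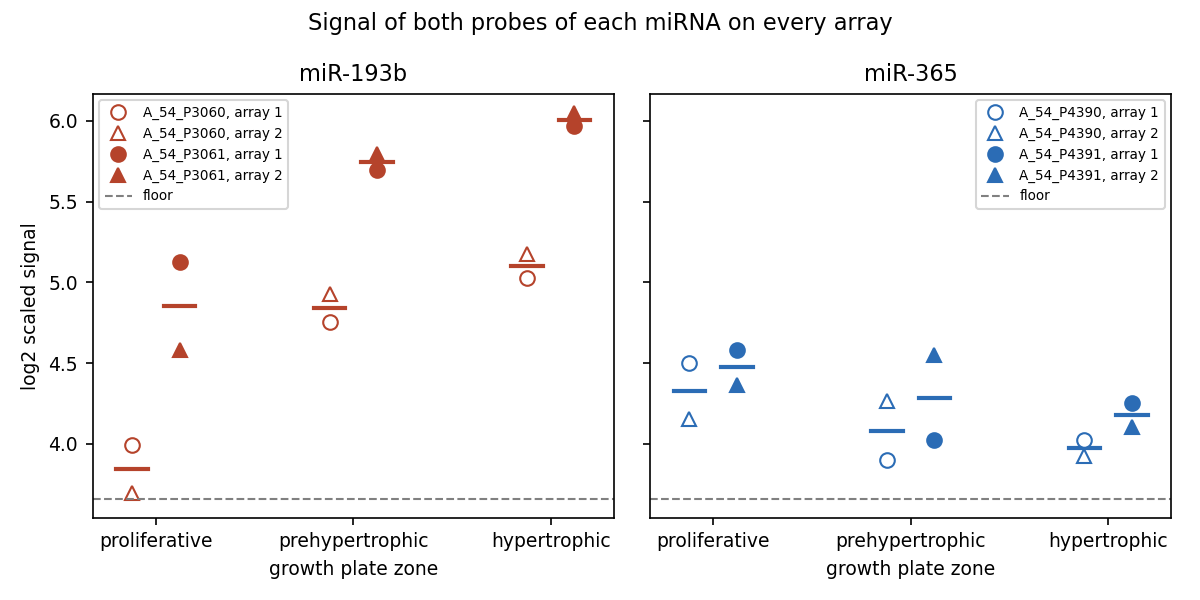
Log2 scaled signal (vertical axis) of both probes of miR-193b (left) and miR-365 (right) on each array of the 3 zones; circles are the first and triangles the second array of a zone, bars are means of 2 arrays and the dashed line is the floor at 3.66. Both miR-193b probes are higher in the prehypertrophic and hypertrophic zones than on either proliferative array, while the miR-365 probes lie between 3.90 and 4.58 in all zones.

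Between the proliferative and the prehypertrophic zone, called the first step below, the difference of miR-193b was 0.89 log2 units (SE 0.27, interval 0.29 to 1.49, adjusted p = 0.14) and did not pass after adjustment over all miRNAs. In this contrast 2.21% of miRNAs passed, all of them higher. miR-193b ranked 10th highest of the 226 differences, and its arrays did not overlap, as was the case in the same direction for 11.9%. Between the prehypertrophic and the hypertrophic zone, the second step, the difference was 0.26 (SE 0.27, interval -0.34 to 0.86, adjusted p = 0.539), where 1.33% passed and 34.1% did not overlap with the hypertrophic arrays higher. The F test over the 3 zones, which asks whether a miRNA differs anywhere among them, passed for miR-193b (adjusted p = 0.0446) and for 7.96% of all miRNAs. The mean of the outer zones minus the prehypertrophic zone was -0.32 (SE 0.24, interval -0.83 to 0.20, adjusted p = 0.551), a contrast in which 1.77% passed.

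The second probe of miR-193b, A_54_P3060, was dimmer and moved in the same direction. It gave 15.9 and 12.96 scaled units on the proliferative, 27.0 and 30.4 on the prehypertrophic and 32.5 and 36.1 on the hypertrophic arrays. Of its 10 spots, 8 had the background mark on the first proliferative array, 0 on the second and 10 on each of the other arrays. Its lowest value thus sits close to the floor. In a fit over 446 probes, its outer zone difference was 1.25 log2 units (SE 0.26, adjusted p = 0.0137) and that of the brighter probe 1.15 (SE 0.28, adjusted p = 0.0252), with 8.97% of probes called in either direction and 4.93% as higher. At the first step the dimmer probe differed by 0.997 (SE 0.26, adjusted p = 0.106) and at the second by 0.26 (adjusted p = 0.538). Both probes report one RNA on the same arrays, so they are not separate replicates.

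The call between the outer zones was close to the threshold. It was lost in 10 of 26 alternatives. These were leaving out the first (1.20 log2 units) or the second hypertrophic array (1.11) and 8 that left out no array. Among the 8 were every other scaling (adjusted p = 0.0561 to 0.0963) and the authors' value table (0.0519). Another of them was a different background correction that also added 50 units to each signal, which gave 0.31 log2 units. In all 26 alternatives the difference stayed above 0.

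miR-365, the partner on chromosome 16, did not follow this pattern. Its brighter probe, A_54_P4391, gave 24.0 and 20.6 scaled units on the proliferative, 16.3 and 23.4 on the prehypertrophic and 19.1 and 17.2 on the hypertrophic arrays. Both hypertrophic arrays lay below both proliferative arrays, as for 27% of the tested miRNAs, whereas the prehypertrophic arrays spanned nearly the whole range of the other zones. The signal was dim throughout, at 1.29 to 1.89 times the floor. On each array 9 or 10 spots were unflagged and 8 to 10 of these carried the mark, and their coefficient of variation was 6.08% to 13.5%.

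In log2 terms miR-365 stood at 4.48 ± 0.15 (SD, n = 2) in the proliferative, 4.29 ± 0.37 (SD, n = 2) in the prehypertrophic and 4.18 ± 0.10 (SD, n = 2) in the hypertrophic zone. Neighbouring zones in this order differed by less than the SD of the prehypertrophic arrays. The outer zone difference was -0.29 log2 units (SE 0.27, adjusted p = 0.593), with a 95% confidence interval of -0.90 to 0.31, that is from 0.536 to 1.24 times the proliferative level. The interval holds both a fall and a small rise. The differences were -0.19 (interval -0.79 to 0.42, adjusted p = 0.802) at the first step and -0.11 (interval -0.71 to 0.50, adjusted p = 0.786) at the second. The F test gave an adjusted p of 0.72, and the outer zones against the prehypertrophic zone gave 0.04 (interval -0.48 to 0.57, adjusted p = 0.959).

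**Figure D2:**
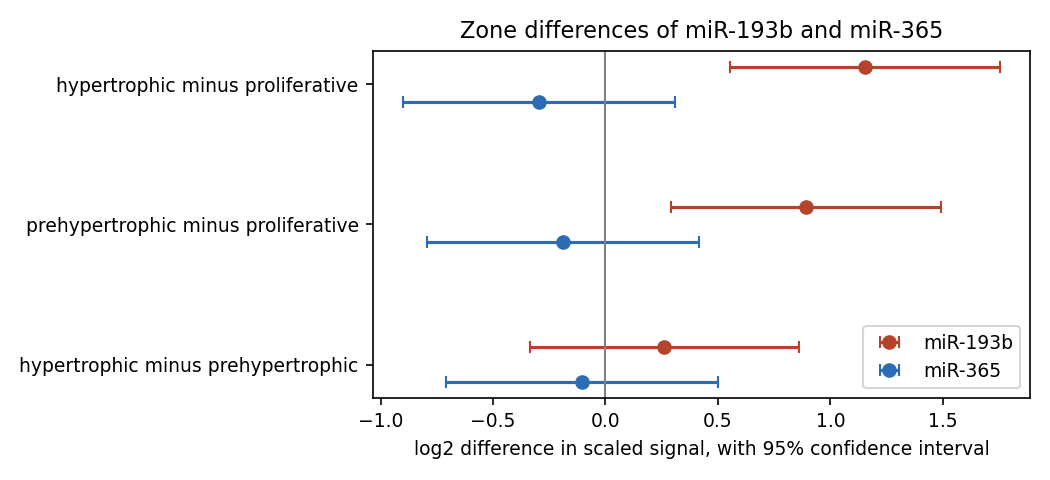
Differences between zones (horizontal axis, log2 scaled signal) of miR-193b and miR-365 from limma, with 95% confidence intervals as bars, for the 3 pairs of zones. The interval of miR-193b lies above 0 for hypertrophic minus proliferative (0.56 to 1.75) and prehypertrophic minus proliferative (0.29 to 1.49), and every interval of miR-365 spans 0. The intervals are not adjusted for the 226 tested miRNAs. After adjustment, prehypertrophic minus proliferative did not pass for miR-193b (limma, adjusted p = 0.14).

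The other miR-365 probe, A_54_P4390, gave 22.7 and 17.8 scaled units on the proliferative, 14.95 and 19.2 on the prehypertrophic and 16.3 and 15.2 on the hypertrophic arrays. It repeated the order of the brighter probe, with the first prehypertrophic array lowest and the first proliferative array highest. In the probe fit its outer zone difference was -0.35 log2 units (SE 0.27, adjusted p = 0.576). The direction between the outer zones depended on scaling: without scaling miR-365 was 0.19 log2 units higher in the hypertrophic zone (adjusted p = 0.645), and the median of all tested miRNAs was 0.46 units higher than with scaling. Relative to that median, miR-365 stood at -0.27 without scaling and at -0.29 with it. miR-193b stood at 1.18 and 1.16 in the same settings.

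**Figure D3:**
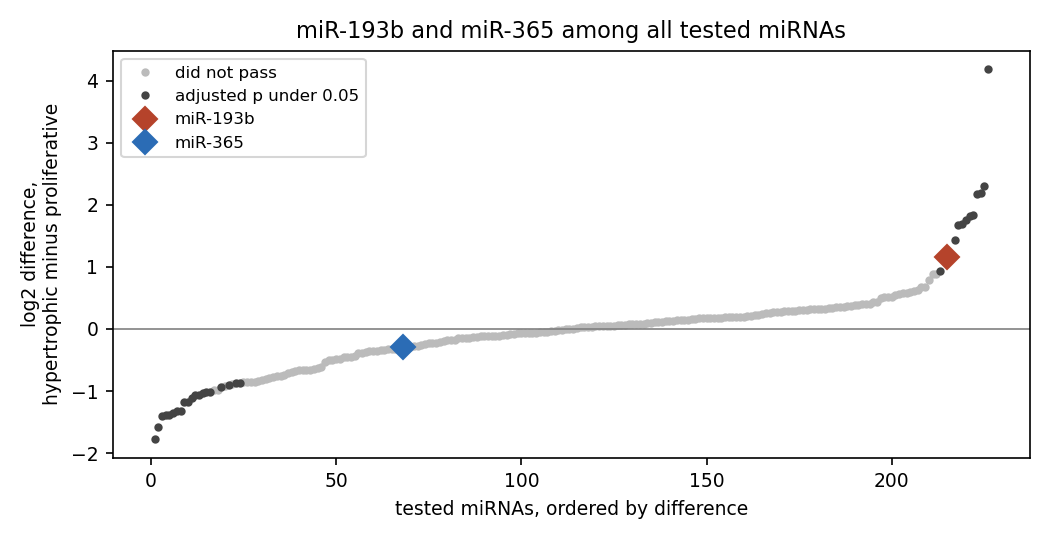
Log2 difference, hypertrophic minus proliferative (vertical axis), of the 226 tested miRNAs in rising order (horizontal axis); dark points passed an adjusted p of 0.05 and diamonds mark the pair. miR-193b at 1.15 stands 12th from the top among the rises, and miR-365 at -0.29 stands 159th from the top.

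A comparison of the pair within each array does not depend on a constant scaling factor. The log2 signal of miR-193b minus that of miR-365 is used here only for how it differed between arrays, since probes differ in brightness. It was 0.54 and 0.22 on the proliferative, 1.67 and 1.25 on the prehypertrophic and 1.71 and 1.94 on the hypertrophic arrays. The zone means were 0.38 ± 0.23, 1.46 ± 0.30 and 1.83 ± 0.16 (SD, n = 2 each). The proliferative arrays thus stood apart from the other 4, whereas the prehypertrophic and hypertrophic arrays were 0.04 units apart at their closest.

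The outer zone difference of miR-193b exceeded that of miR-365 by 1.45 log2 units, and the first step difference by 1.08. The two-sided exact permutation test over arrays gave p = 0.333 for each, which is the smallest p that this test can give for 2 arrays against 2, so it cannot pass a threshold of 0.05. All 4 combinations of a miR-193b probe with a miR-365 probe gave between 1.45 and 1.61 for the outer zones and between 1.08 and 1.24 for the first step. At the second step the excess was 0.37, with the same p. In these samples the levels of the pair changed unequally between zones. The probe combinations share the same arrays, and the test could not decide whether the excess goes beyond the spread between arrays. These values do not show that either miRNA kept its level.

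All arrays were on one slide. By the numbering of the scans, from which the row was read, both hypertrophic arrays were in its first row, both prehypertrophic arrays in its second and a proliferative array in each. Within the first row, the hypertrophic mean of miR-193b was 0.88 log2 units above the proliferative array, and within the second row the prehypertrophic mean was 1.16 above it. With the row as a block, the outer zone difference was thus 0.88. For this contrast only, the block fit equals the one without the second proliferative array. It sets 2 hypertrophic arrays against 1 proliferative array, which is assumed to vary like the arrays of the other zones. In the same block fit the second step turned from 0.26 to -0.28 (adjusted p = 0.5). The order of the prehypertrophic and hypertrophic zones for miR-193b is therefore not settled, since zone and row cannot be told apart for those zones except through the proliferative pair. For miR-365 the within-row values were -0.40 for the outer zones and -0.08 for the first step.

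The sample titles number the arrays from 13 to 18, and each run of 3 numbers holds 1 array per zone. Within the runs, the outer zone difference of miR-193b was 0.93 and 1.38 and its first step 0.57 and 1.21. Those of miR-365 were -0.48 and -0.11 for the outer zones and -0.56 and 0.18 for the first step. miR-193b thus had one direction in both runs for these contrasts, and miR-365 changed direction between runs at the first step.

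The relatives on chromosome 11 gave little signal. miR-193, the name for miR-193a-3p, was well above background on none of the 6 arrays with either of its 2 probes, at scaled signals of -3.99 to 0.361. The miR-193b probes therefore gave signal on arrays where the probes for its near-identical relative, with 3 different bases, did not. Whether a probe for one of them also binds the other could not be examined, since probe sequences are not given. miR-193*, the other arm of the same hairpin, had 4 probes, of which the brightest, A_54_P3347, was well above background on 5 arrays. It gave 19.7 and 26.2 scaled units on the proliferative, 11.9 and 21.2 on the prehypertrophic and 29.2 and 26.1 on the hypertrophic arrays. Its outer zone difference was 0.28 log2 units (SE 0.31, adjusted p = 0.657), and its smallest adjusted p over the zone pairs was 0.256, for the second step (0.75). The star forms of miR-193b and miR-365 have no probe under those names.

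Likeness of pattern was measured as Pearson's r over the 6 arrays, among 186 miRNAs well above background on all of them. The profile most like that of miR-193b was miR-322 (r = 0.98), followed by miR-22 (0.97), miR-503 (0.91), miR-27a (0.89) and miR-20b (0.83). All 5 were lower on both proliferative arrays than their mean. Their first step differences were 2.10, 1.31, 1.999, 0.93 and 0.68 log2 units, against 0.89 for miR-193b. miR-365 ranked 127th of 185 by likeness to miR-193b, with r = -0.43.

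For miR-365 the most similar profiles were miR-92a (r = 0.98), miR-125b-5p (0.81), miR-296-5p (0.77), miR-434-3p (0.74) and miR-300 (0.73). miR-92a spanned a narrower range, with an outer zone difference of -0.12 log2 units, and shared with miR-365 a low first and a high second prehypertrophic array. These r values describe 6 points that share arrays and scaling factors and carry no test.

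**Figure D4:**
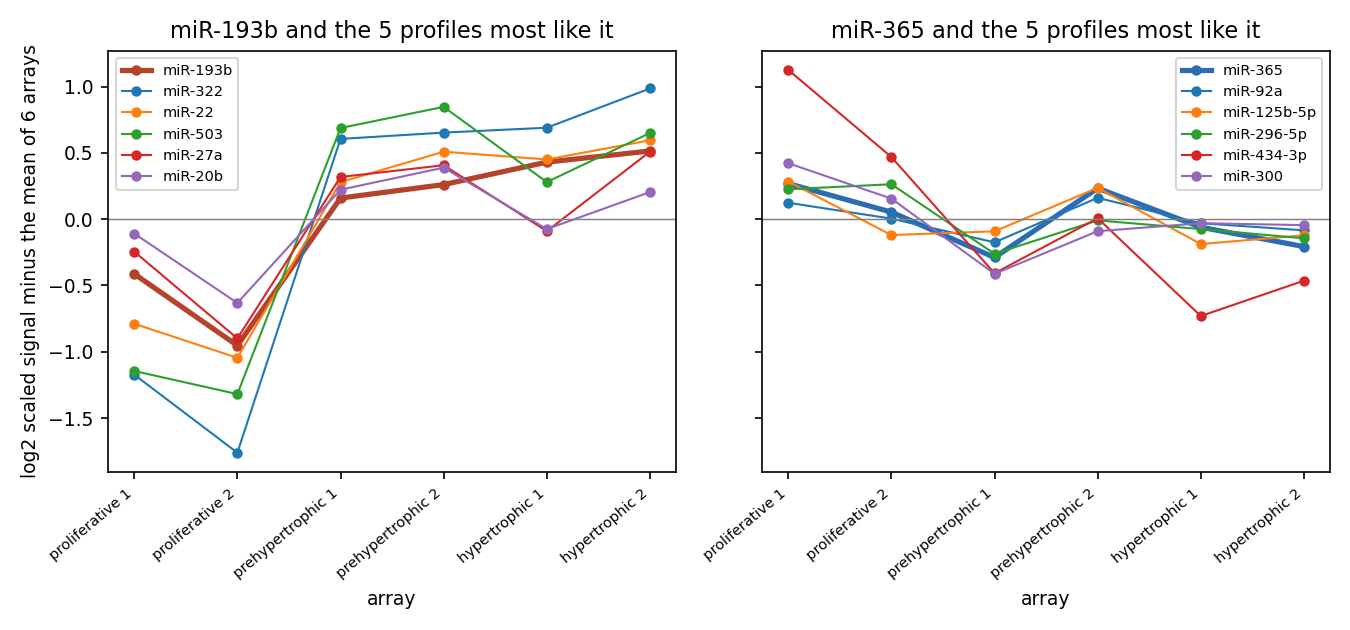
Log2 scaled signal minus the mean over the 6 arrays (vertical axis) for miR-193b (left) and miR-365 (right) and the 5 miRNAs with the highest r to each, by array (horizontal axis); lines only join the points of one miRNA. The left profiles are low on both proliferative arrays, and each right profile is lower on the first than on the second prehypertrophic array.

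miRNAs reported to act on HDAC4, miR-365 among them, made a list of 9, of which 4 entered the test. In the outer zone contrast 1 of the 4 rose and 3 did not pass, against 5.75% of all tested miRNAs passing as higher and 14.6% in either direction. The list median was 0.11 log2 units and that of all tested miRNAs -0.0017. The rise was miR-22 (1.44 log2 units, SE 0.26, adjusted p = 0.00381), a widely expressed miRNA, which also passed at the first step (1.31, adjusted p = 0.0162), where 2.21% of all did. miR-140, the chondrocyte miRNA that represses HDAC4, differed by -0.76 (adjusted p = 0.13) and miR-29a by 0.51 (adjusted p = 0.517), and miR-365 is the remaining tested member. miR-1, miR-206, miR-29b, miR-29c and miR-381 were not tested, since they were well above background on no array.

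Of 12 miRNAs linked to chondrocytes, 8 entered the test. Between the outer zones 1 rose, miR-193b itself, 1 fell and 6 did not pass, where over all tested miRNAs 5.75% rose, 8.85% fell and 14.6% passed in either direction. The list median was -0.74 log2 units against -0.0017 over all. The fall was miR-675-3p, cut from the imprinted H19 transcript, which was at least 1.82-fold lower in the hypertrophic zone (adjusted p = 0.0393), where neither array had it well above background. That bound compares zone means on the reported scaling only. Calls of falls depended on the scaling. Over all tested miRNAs 20 passed as lower on this scaling, 8 under quantile normalization, 1 under median scaling and 0 without scaling. miR-140* differed by -0.98 (adjusted p = 0.0534), miR-455 by -0.78 (adjusted p = 0.0579) and miR-199a-5p by -0.72 (adjusted p = 0.152). miR-675-5p, miR-145, miR-337-3p and miR-34a were well above background on no array. At the first step the list median was -0.11 log2 units against -0.14 over all, and the smallest adjusted p was the 0.14 of miR-193b. miR-455*, the other arm of the miR-455 hairpin, differed there by 0.86 (adjusted p = 0.145), next to 0.89 for miR-193b.

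Among the markers of other cell types, miR-451 and miR-126-3p passed as higher between the outer zones. In the fat list miR-196a, its only member well above background on any array, passed as lower on the reported scaling (-1.01 log2 units, adjusted p = 0.0316). Over all tested miRNAs 5.75% passed as higher and 8.85% as lower. In the blood and marrow list of 8, 1 to 3 members per array were well above background, and the summed scaled signal of the list, with signals below 0 counted as 0, was 26.8 to 43.3 on the proliferative, 45.2 to 47.3 on the prehypertrophic and 265 to 290.01 on the hypertrophic arrays. miR-451, the erythroid miRNA, rose by 4.18 log2 units between the outer zones (SE 0.25, adjusted p = 9.57e-07). It gave 13.8 and 9.77 scaled units on the proliferative, 28.6 and 26.7 on the prehypertrophic and 226 and 254 on the hypertrophic arrays. miR-451 thus made up most of the hypertrophic sums of the list. Its first step difference was 1.06 (adjusted p = 0.0513). The size of both differences depends on the floor, to which the second proliferative array, not well above background, was raised. miR-144, miR-142-3p, miR-142-5p, miR-150 and miR-155 did not reach that mark on any array. The endothelial miR-126-3p was so on both hypertrophic arrays, at 34.7 and 47.2 scaled units, and on no proliferative or prehypertrophic array, and its partner arm miR-126-5p on none.

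Of the skeletal muscle list, 1 of 5, miR-208b, was well above background, and the list summed to 153 to 158 scaled units on the proliferative, 114 to 158 on the prehypertrophic and 107 to 113 on the hypertrophic arrays. Neither smooth muscle and pericyte marker, miR-143 or miR-145, was well above background on any array, at summed signals of at most 4.24 units. In the fat list miR-196a was so on all arrays and miR-203 and miR-182 on none, and the list summed to 102 to 151 units on the proliferative, 93.6 to 96.9 on the prehypertrophic and 66.2 to 70.2 on the hypertrophic arrays. These sums rest on a single detected miRNA and do not show that fat cells were present. The cartilage markers miR-140, miR-140* and miR-455 summed to 6436 to 10339 units on the proliferative, 6777 to 6873 on the prehypertrophic and 3881 to 4873 on the hypertrophic arrays. The part of these cells in the zone differences of miR-193b was not tested. Fewer cells of a type and less RNA per cell cannot be told apart in such bulk samples.

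**Figure D5:**
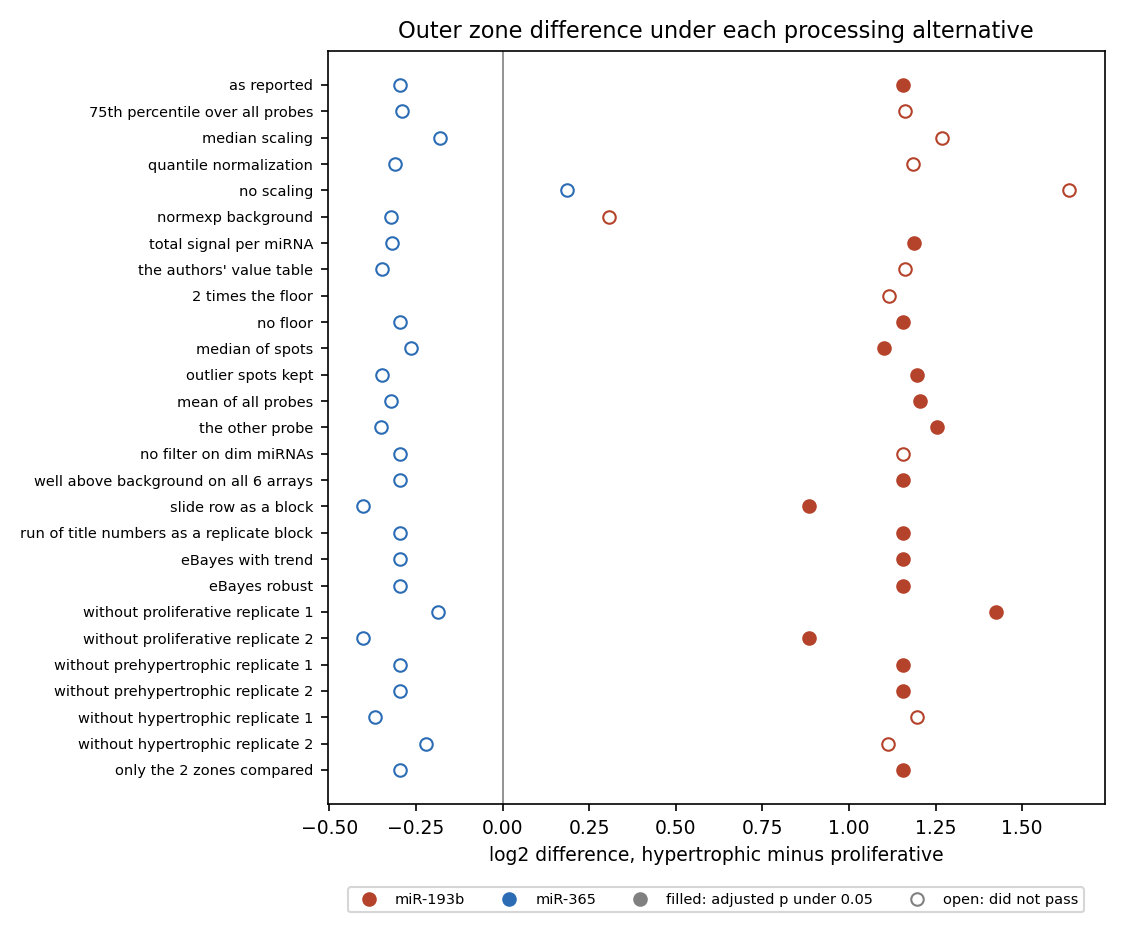
Log2 difference, hypertrophic minus proliferative (horizontal axis), of miR-193b and miR-365 as reported and under each processing alternative (vertical axis); filled points passed an adjusted p of 0.05. miR-193b ranges from 0.31 to 1.64 and stays above 0, while miR-365 ranges from -0.40 to 0.19, passes nowhere and has no point with 2 times the floor, where all its arrays lie at the floor.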

How the data were processed

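The authors read the scans with Feature Extraction 10.7.3.1, per the file headers, which gives the deposited intensity per spot on a linear scale, with background subtracted. A table of log2 values was deposited as well. Its values matched the scanner files' total signal of each miRNA (raised to 1 where lower) on the log2 scale after subtracting 1 constant an array, with a largest departure of 1.28e-06, which settles scale, centring and direction. Column medians were -4.40 and -4.25 (proliferative), -4.46 and -4.45 (prehypertrophic) and -4.69 and -4.94 (hypertrophic).

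Control and outlier-flagged spots (384 to 515 of 13800 per array) were left out and no spot of the pair was saturated. Spots of a probe were averaged, and each miRNA was represented by its probe with the highest mean log2 signal. For the floor, each array's lowest scaled signal flagged well above background was found and the median of the 6 taken. A miRNA entered the test if 1 or more zones had its probe well above background on each of its 2 arrays. The fit used limma 3.58.1 (lmFit, eBayes) under R 4.3.3 (3 residual and 7.83 prior degrees of freedom), with zone as the factor over all 6 arrays. A bound ("at least") sets the brighter zone's mean against the higher of floor, lowest signal well above background and own signal. The fit was tested on simulated data. The normexp alternative used median spot signals, as the files hold no mean spot signal, and had no floor. It also added an offset of 50 units to each signal, which by itself narrows log2 differences. The share of the offset in the smaller normexp values was not tested. The authors' own analysis used GeneSpring, per the labels. Lists and members were chosen with earlier results of these data known. miRNAs named are the pair, its relatives, the 5 most alike, list members that passed and up to 4 others per list by smallest p. The number of arrays limits the precision.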

Additional observations from a re-analysis of the deposited data

How the results depend on the processing

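For miR-193b between the outer zones, 16 of 26 alternatives kept the call. Several are one fit under different names for this contrast. Leaving out either prehypertrophic array equals fitting only the zones compared, and the row block equals leaving out the second proliferative array. The call was therefore kept by 13 distinct fits. It was lost with the 75th percentile of all probes (1.16 log2 units, adjusted p = 0.0963), median scaling (1.27, 0.0624), quantile normalization (1.19, 0.0621), no scaling (1.64, 0.0561), normexp (0.31, 0.158), the authors' value table (1.16, 0.0519), 2 times the floor (1.12, 0.0776) and no filter on dim miRNAs (1.15, 0.133, with more miRNAs in the adjustment). Leaving out single arrays, with the lone array of a zone assumed to vary like the others, gave 0.88 to 1.43, and the cause of the other losses was not tested. Its first step passed with robust eBayes (0.89, adjusted p = 0.0483) and in no other of the 26, and its second step reversed with the slide row as a block (-0.28).

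miR-365 passed in no alternative. Without scaling its differences reversed to 0.19 between the outer zones, 0.15 at the first and 0.038 at the second step, which the total signal per miRNA also reversed (0.058). Leaving out single arrays gave -0.45 to 0.073 at the first and -0.37 to 0.155 at the second step. For the outer zones against the prehypertrophic zone it reversed with the 75th percentile of all probes (-0.078), median scaling (-0.037), quantile normalization (-0.13), no scaling (-0.056), the value table (-0.14), the median of spots (-0.022) and the row block (-0.12), and ranged from -0.22 to 0.30 without single arrays. With 2 times the floor it gave no value. For the excess of miR-193b over miR-365 between the outer zones, 4 of 8 alternatives could not move the value, as a constant factor cancels within an array and both miRNAs lie above the floor; the other 4 gave 0.63 to 1.53.

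The count of miRNAs past the threshold between the outer zones, 33 (13 higher, 20 lower), was 11 with the 75th percentile of all probes (10 higher, 1 lower), 12 under median scaling (11 and 1), 19 under quantile normalization (11 and 8), 15 without scaling (15 and 0), 20 with the value table, 8 with 2 times the floor, 20 with the mean of all probes, 1 without a filter, and 1 to 45 without single arrays. It was 13 without the first proliferative, 2 without the first hypertrophic and 1 without the second hypertrophic array. The counts ranged from 0 to 15 at the first step (5 as reported), from 1 to 10 at the second (3) and from 0 to 7 for the outer zones against the prehypertrophic zone (4). The 14 fits in limma that called 0 miRNAs held 13 to 57 at an unadjusted p under 0.05.

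With the run of title numbers as a replicate block, the outer zone difference of miR-193b was 1.15 (adjusted p = 0.0227), and no call of the pair changed. Run differences correlated across miRNAs at 0.59, 0.73 and 0.29 between zones, but no label calls a run a batch. miR-365 lies near the floor.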
